A study of Mus musculus with 8 samples.

Results

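Interleukin-6, interleukin-27 and interleukin-10 are read by T cells through a small set of shared receptor chains. The genes described here are the 5 chains Il6ra, Il6st, Il27ra, Il10ra and Il10rb, the kinase genes Jak1 and Jak2 and the transcription factor gene Stat3. They were picked by gene symbol, and all 8 were in the deposited table of 13245 genes. The libraries came from sorted lymph node CD8 T cells that carry Ly6C and CXCR3 on their surface, which the series title calls memory phenotype cells. One group was C57BL/6 mice (B6) and the other was CD103Tg mice, which per the series title overexpress CD103, the adhesion receptor chain that Itgae encodes; there were 4 libraries in each. The labels used here give no age, sex, treatment, transgene promoter or founder line, and do not say whether replicates were separate animals. The p-values therefore measure the spread between these libraries, which may be technical in part. Sex-linked RNA, given below, differed within each group, so the libraries of a group were not all from the same pool of cells.

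Interleukin-6 binds its own alpha chain (Il6ra) and the complex then recruits the signalling chain gp130 (Il6st). Interleukin-27 uses its own alpha chain (Il27ra) with the same gp130, and interleukin-10 uses a ligand-binding chain (Il10ra) with an accessory chain (Il10rb) that also serves other cytokines of its family. Janus kinases bound to these chains phosphorylate STAT3. In CD8 T cells the interleukin-6 receptor chains are known to be high on naive and central memory cells.

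Values are CPM, the reads of a gene scaled to library size with TMM factors, and the authors deposited 1 column per library. Estimated reads over the listed genes ranged from 50187279 to 56371476 per library, and each member had between 2489 and 140227 estimated reads in every library. Itgae was at 41.4, 51.4, 37.5 and 174 CPM in the B6 libraries and at 3469, 4692, 4169 and 5509 CPM in the CD103Tg libraries. All 11 genes that mark CD8 T cells or the sort were in the table, with a summed level of 11284 to 12636 CPM in B6 and 11766 to 12973 CPM in CD103Tg. Within that list the receptor chain gene Trac fell from 1007 to 642 CPM, Cd8a fell from 1191 to 1006 CPM, and Il2rb, which encodes the shared beta chain CD122, rose from 1389 to 2262 CPM (limma adjusted p = 4.9e-05, 0.00602 and 5.89e-05), and the other 8 did not pass. B6 replicate 3 had a mean log2(CPM + 1) of 0.0137 over Y-linked genes against 3.78 to 6.24 in the other 7 libraries. Xist, which is transcribed from the inactive X chromosome of females, was at 72 CPM in that library, at 21.7, 36.4 and 45.2 CPM in CD103Tg replicates 1, 3 and 4, and at up to 1.71 CPM in the other 4, so 3 CD103Tg libraries had both Xist and Y-linked RNA. The calls of the 4 members described below were kept with the Y-linked level as a covariate.

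The comparison asked which of these receptor and signalling genes differ between CD103Tg and B6 cells. The interleukin-6 receptor genes Il6st and Il6ra fell, the interleukin-10 receptor genes Il10ra and Il10rb rose, and Il27ra, Stat3, Jak1 and Jak2 did not pass the test. All 8 members passed the filter of a mean of at least 1 CPM, and 4 were called, 2 higher and 2 lower, where a call is a limma-trend p under 0.05 after Benjamini-Hochberg adjustment over 11503 genes. Over all genes tested 31.2% were called, 17.4% higher and 13.8% lower, so a count of 4 among 8 genes is not far from that background. The split of all calls depended on the scaling, with 2000 higher and 1592 lower as deposited, 1745 and 1989 after quantile normalization and 1759 and 1850 with equal totals. In the same 4 members the groups did not overlap, against 31% of all genes tested, 17.4% without overlap and higher and 13.6% without overlap and lower. In size, the middle 90% of all log2 fold changes ran from -0.52 to 0.78 and Il6st, Il6ra and Il10ra lay outside it. These 3 were called with a change of at least 2-fold, as were 4.96% of all genes tested.

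**Figure D1:**
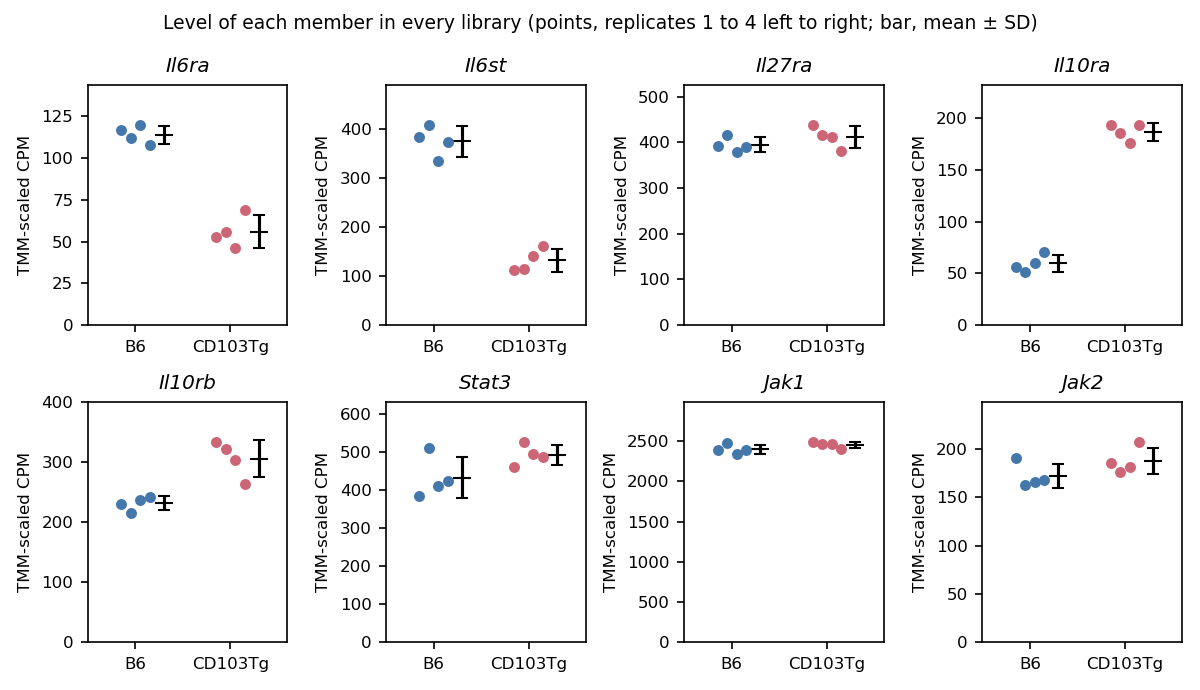
Level of the 8 genes in TMM-scaled CPM (y axis, from 0) in the 4 B6 and 4 CD103Tg libraries (points, replicates 1 to 4 from left to right), with the mean ± SD of each group beside them. The groups do not overlap for Il6ra, Il6st, Il10ra and Il10rb, and they overlap for Il27ra, Stat3, Jak1 and Jak2.

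Of the interleukin-6 receptor chains, Il6st, the gp130 chain that carries the signal, was at 383, 408, 333 and 373 CPM in B6 and at 112, 115, 140 and 162 CPM in CD103Tg. Every CD103Tg library lay below every B6 library, and within CD103Tg replicates 3 and 4 were the higher ones. The means were 374 ± 31.1 and 132 ± 23.5 CPM (SD, n = 4 each), a B6 level 2.83 times that of CD103Tg. Il6st fell by 1.51 on the log2(CPM + 1) scale (95% interval -1.75 to -1.27, limma adjusted p = 3.48e-06).

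Il6ra, the alpha chain that binds interleukin-6 itself, was at 117, 112, 120 and 108 CPM in B6 and at 52.8, 55.7, 46.3 and 69.2 CPM in CD103Tg. Again the groups were apart, and CD103Tg replicate 4 was the nearest to B6. Il6ra fell by 1.03 (SE 0.1, limma adjusted p = 2.34e-05), from 114 ± 5.42 to 56.0 ± 9.63 CPM (SD, n = 4 each). An antisense gene, Gm42809, shares 242 exonic bases with Il6ra, and these libraries do not mark strand. It held 57 to 205 estimated reads per library against 2489 to 6372 for Il6ra, and it also fell (-0.62, limma adjusted p = 0.0192). These estimates depend on how reads in the shared bases were assigned.

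The members that fell are on different chromosomes. On GRCm38, Il6ra lies on the minus strand of chromosome 3 from 89864059 to 89913196 and Il6st on the plus strand of chromosome 13 from 112464070 to 112510086. Their promoter windows, 250 bases before to 50 bases after the RefSeq start on GRCm38.p6, are shown because these genes moved in the same direction. RefSeq windows were matched for 5 of the 8 members. Capitals mark the GC box GGGCGG on either strand, and each sequence runs 5′ to 3′ on its gene's strand. The windows are chr3:89913147-89913446 on the minus strand for Il6ra and chr13:112463820-112464119 on the plus strand for Il6st.
Il6ra: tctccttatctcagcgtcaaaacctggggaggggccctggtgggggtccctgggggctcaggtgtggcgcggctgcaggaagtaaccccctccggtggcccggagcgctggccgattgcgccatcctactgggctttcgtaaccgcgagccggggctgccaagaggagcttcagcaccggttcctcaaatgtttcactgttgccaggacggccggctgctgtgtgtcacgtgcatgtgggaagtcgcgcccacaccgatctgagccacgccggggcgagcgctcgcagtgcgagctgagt
Il6st: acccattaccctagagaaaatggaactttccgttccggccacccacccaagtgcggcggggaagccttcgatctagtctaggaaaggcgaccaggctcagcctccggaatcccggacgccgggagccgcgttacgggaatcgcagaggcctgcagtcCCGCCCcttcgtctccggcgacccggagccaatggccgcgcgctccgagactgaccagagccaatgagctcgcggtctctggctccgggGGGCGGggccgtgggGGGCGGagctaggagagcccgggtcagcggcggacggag

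Both windows are rich in G and C, at 66.0% and 68.3% against a median of 52.7% over 32851 windows, and hold 25 and 33 CpG dinucleotides against a median of 7. Il6st has 3 GC boxes and Il6ra has none; 35.7% of all windows hold at least 1. On both strands, none of the 5 members' windows held the STAT motif TTCNNNGAA (8.3% of all windows), its stricter form TTCCNGGAA (1.15%, contained in the former), the core of the interferon-stimulated response element (3.44%), the T-box site AGGTGTGA (1.28%), the TCF and LEF core CTTTGAT (3.73%) or the forkhead site TGTTTAC (3.65%). The search describes letters in these windows only.

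Of the interleukin-10 receptor chains, Il10ra, which binds the cytokine, was at 56.4, 51.7, 60.4 and 70.8 CPM in B6 and at 194, 186, 176 and 194 CPM in CD103Tg. It was the most even of the 4 called members within CD103Tg, with a coefficient of variation of 4.58%, and in B6 the highest library was replicate 4, which also had the highest Itgae of its group. Il10ra rose by 1.64 ± 0.08 on the log2 scale (SE; limma adjusted p = 5.02e-07), from 59.8 ± 8.15 to 187 ± 8.59 CPM (SD, n = 4 each), a ratio of 3.13. By p-value it ranked 15 among the 11503 genes tested, ahead of Itgae at 38.

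Il10rb, the accessory chain shared with other receptors of the family, was at 231, 216, 238 and 243 CPM in B6 and at 334, 322, 304 and 263 CPM in CD103Tg. The groups did not overlap, although CD103Tg replicate 4 lay close to the highest B6 library. Il10rb rose by 0.39 (SE 0.07, limma adjusted p = 0.00198), a smaller change than that of Il10ra. The annotation also holds Gm21970, a gene that shares 569 exonic bases with Il10rb and is not analysed here, and reads there cannot be told apart. Il27ra shares 2 exonic bases with Palm3 and Jak1 shares 4 with Raver2.

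Markers of other cell types are given beside these changes because interleukin-10 receptors are also made by myeloid, natural killer and B cells. The 10 listed macrophage, monocyte and dendritic cell markers in the table summed to 65.6 to 130 CPM in B6 and 93.9 to 184 CPM in CD103Tg. Of the 8 tested, 4 were called higher and 0 lower, beside 17.4% and 13.8% of all genes tested. Siglech, 1 of these 4, averaged 0.217 CPM in B6 and 1.97 CPM in CD103Tg, so only its CD103Tg level took it past the filter. In B6 replicates 1 to 4 the sum was 76.3, 130, 88.3 and 65.6 CPM, beside Il10ra at 56.4, 51.7, 60.4 and 70.8 CPM. In CD103Tg replicates 1 to 4 it was 167, 184, 105 and 93.9 CPM, beside Il10ra at 194, 186, 176 and 194 CPM. Lyz2, the macrophage lysozyme gene, ranged from 2.42 to 55.0 CPM in B6 and from 9.42 to 78.3 CPM in CD103Tg. Cst3, also in this list, was the largest single part of the sum in every library. Its B6 values spanned 54.9 to 69.0 CPM, and its CD103Tg values spanned 66.7 to 80.0 CPM. The sum therefore followed mainly Cst3 and Lyz2, and it says little about the other markers of the list.

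Natural killer markers (4 in the table) summed to 7.52 to 10.2 CPM in B6 and 11.0 to 18.3 CPM in CD103Tg. Of 3 tested, 2 were called higher and 0 lower. Of 7 B cell and plasma cell markers tested, 4 were called higher and 2 lower, beside 17.4% and 13.8% of all genes tested. Among the 4, Cd79a averaged 0.585 CPM in B6 and 1.86 CPM in CD103Tg, and Jchain 0.319 and 9.46 CPM. Only their CD103Tg levels took these genes past the filter. The 9 B cell and plasma cell markers in the table summed to 846 to 937 CPM in B6 and 493 to 636 CPM in CD103Tg, most of it Ighm, while Ms4a1 was under 2 CPM in every library. The summed levels of granulocyte markers (3 of 5 in the table) reached 3.41 CPM in B6 and 6.32 CPM in CD103Tg. Of the CD4 and regulatory T cell markers Cd40lg was in the table, at up to 0.786 CPM, and of the stromal and endothelial markers Pecam1, which fell. The part of RNA from these other cell types in the results was not tested, and in sorted bulk samples a change in the share of cells with a transcript cannot be told apart from a change in its amount per cell.

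Il27ra, the alpha chain of the interleukin-27 receptor, was at 393, 417, 379 and 391 CPM in B6 and at 439, 417, 411 and 382 CPM in CD103Tg. The groups overlapped, and the difference of 0.06 on the log2 scale had a 95% interval of -0.06 to 0.18 (limma adjusted p = 0.452). The interval leaves out changes as large as those of Il6st, the chain with which Il27ra pairs.

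Among the signalling members, Stat3, the transcription factor these receptors share, was at 385, 512, 412 and 425 CPM in B6 and at 462, 527, 496 and 487 CPM in CD103Tg. Within both groups replicate 2 was the highest, and it was B6 replicate 2 that lay among the CD103Tg values. The difference was 0.19 on the log2 scale (95% interval 0.01 to 0.37, limma adjusted p = 0.102). Without B6 replicate 2 it was 0.27 and past the threshold (adjusted p = 0.0104), while the other left-out libraries gave 0.14 to 0.22 and no call. Stat3 and Stat5a share 72 exonic bases on opposite strands, and Stat5a was at 71.6 ± 5.07 and 64.3 ± 2.58 CPM (SD, n = 4 each).

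Jak1, the kinase used by gp130 and by Il10ra, was the most abundant member and the steadiest, at 2394, 2476, 2342 and 2394 CPM in B6 and at 2492, 2461, 2463 and 2405 CPM in CD103Tg. Its difference of 0.03 had a 95% interval of -0.1 to 0.16 (limma adjusted p = 0.717). Jak2, a second kinase of gp130, was at 190, 162, 166 and 168 CPM in B6 and at 185, 176, 181 and 207 CPM in CD103Tg, a difference of 0.12 with an interval of -0.02 to 0.27 (limma adjusted p = 0.189). Both genes overlapped between the groups.

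**Figure D2:**
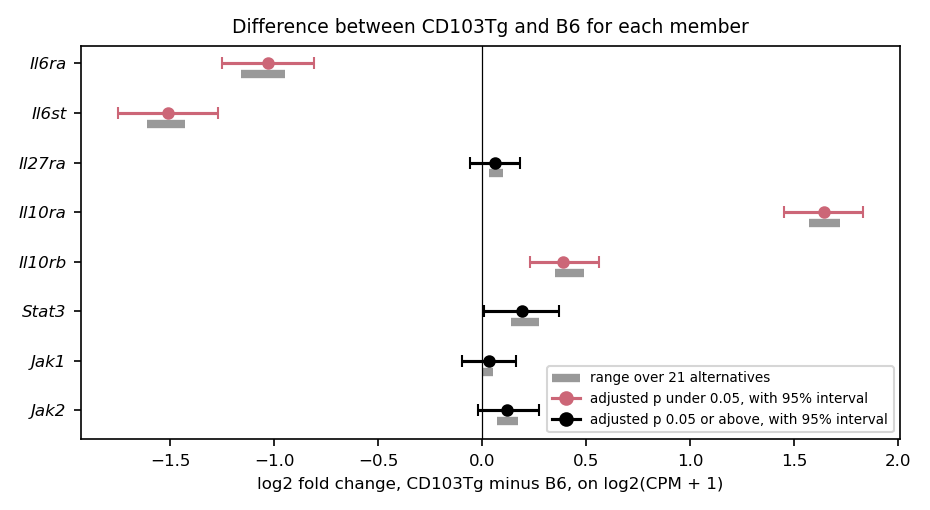
Difference between CD103Tg and B6 for each member, as log2 fold change on log2(CPM + 1) (x axis), with the 95% interval from limma as whiskers and the range over 21 alternative settings as grey bars. Il6ra and Il6st lie below 0 and Il10ra and Il10rb above it, and the alternatives stay on the same side for all 4.

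To compare levels between the genes, CPM was divided by the length of each gene's longest coding transcript. In B6 the order was Jak1 (489 CPM per kilobase), Il27ra (148), Il10rb (125), Stat3 (71.7), Il6st (43.1), Jak2 (34.1), Il10ra (17.1) and Il6ra (13.2). The ranges of neighbours over the 4 B6 libraries did not overlap, but Il6st and Jak2 were apart by little, and with merged exon lengths they overlapped and changed places.

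In CD103Tg, Il10ra moved up to 53.6 CPM per kilobase, above Jak2 at 37.2, and Il6st moved down to 15.2, below Jak2. Il6ra was the lowest in both groups, at 6.48 in CD103Tg. Il10rb (142 to 180) and Il27ra (143 to 165) overlapped there. With merged exon lengths Il27ra was higher than Il10rb, and Il10ra (50.3 to 55.5) overlapped Stat3 (48.4 to 55.3).

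**Figure D3:**
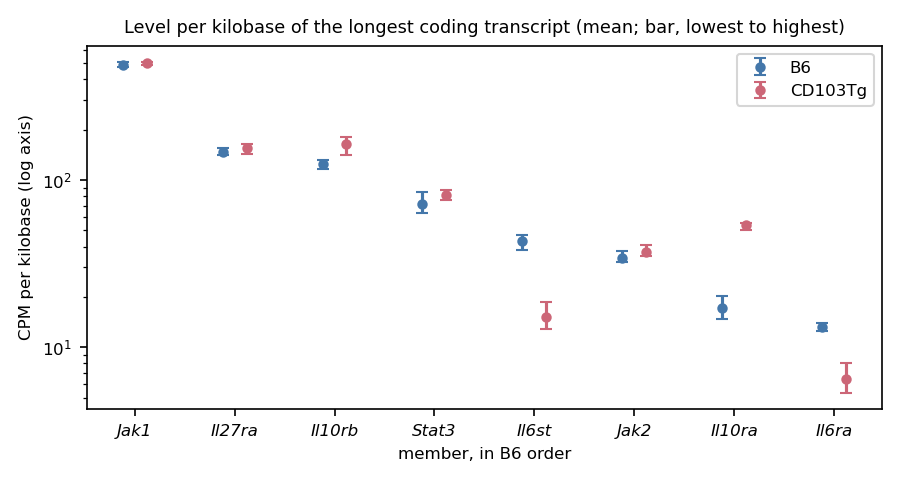
CPM per kilobase of the longest coding transcript (y axis, log scale) for each member in B6 and CD103Tg, with the mean as a point and the lowest and highest of 4 libraries as whiskers. In B6 the Il6st level (43.1) is above that of Il10ra (17.1), and in CD103Tg Il10ra (53.6) is above Il6st (15.2).

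Ratios of 2 genes within a library do not depend on how libraries were scaled, and are given as a description. All pairs were chosen with earlier results of these data known. The Il10ra to Il10rb ratio of CPM was 0.245, 0.239, 0.254 and 0.292 in B6 and 0.581, 0.576, 0.579 and 0.736 in CD103Tg. The binding chain therefore gained on the accessory chain in each CD103Tg library. The Il27ra to Il6st ratio was 1.03, 1.02, 1.14 and 1.05 in B6 and 3.92, 3.63, 2.93 and 2.36 in CD103Tg, and the range within CD103Tg was wider than in B6.

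The Il6st to Il6ra ratio was 3.28 ± 0.374 in B6 and 2.39 ± 0.443 in CD103Tg (SD, n = 4 each), and the groups overlapped, with CD103Tg replicate 3 at 3.03 and B6 replicate 3 at 2.77. Il10ra to Il6ra, a ratio chosen after its values were seen, was 0.46 to 0.656 in B6 and 2.8 to 3.8 in CD103Tg. Jak1 to Jak2 was 14.0 ± 1.1 and 13.2 ± 1.05, with overlap.

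**Figure D4:**
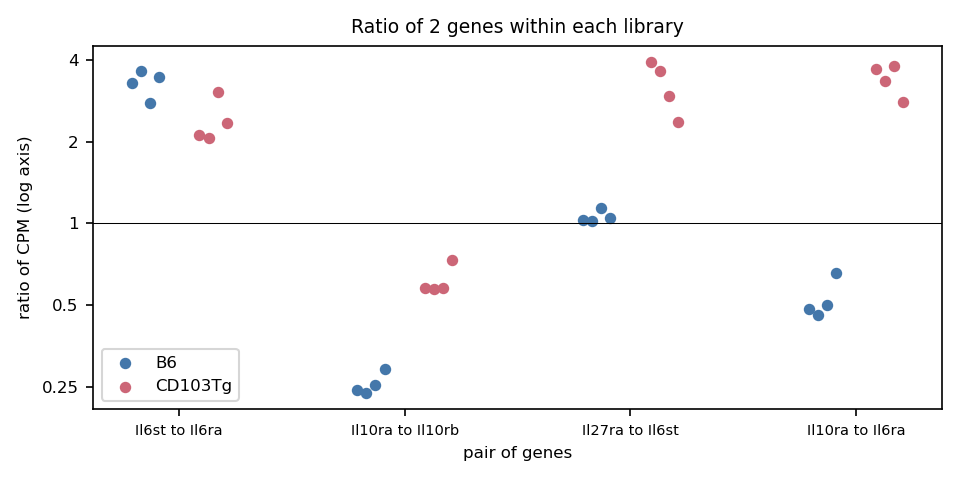
Ratio of CPM of 2 genes (y axis, log scale) for 4 pairs (x axis) in each of the 4 B6 and 4 CD103Tg libraries (points). The Il10ra to Il10rb and Il27ra to Il6st ratios are higher in every CD103Tg library than in any B6 library, and the Il6st to Il6ra ratios overlap at 2.77 and 3.03.

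The rest of the pathway was described with 7 lists of 103 distinct genes, of which 71 were in the table and 66 were tested. Of these 66, 28 were called higher and 7 lower in CD103Tg, where 17.4% of all genes tested were called higher and 13.8% lower. Some genes are in more than one list. Over all 11503 genes the median difference on the log2 scale was -0.005.

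Of 16 ligand genes of the gp130 and interleukin-10 families, 3 were in the table and 2 were tested, with 0 called higher and 0 lower by limma. Clcf1, which signals through a gp130 receptor, was at 32.6 ± 1.41 and 36.3 ± 2.54 CPM (SD, n = 4 each). Osm, the oncostatin M gene, was at 15.4 to 17.7 CPM in B6 and 18.2 to 20.3 CPM in CD103Tg, without overlap, and did not pass the test (limma adjusted p = 0.0626). The number of ligand genes called higher was 1 without B6 replicate 1, with array weights and with no filter on low values. The lowest limma adjusted p of Clcf1 over the 21 alternatives was 0.0713, so the gene called was Osm without B6 replicate 1 and with array weights. With no filter it was Osm or Lif. Lif, the other ligand gene in the table, averaged 0.0824 CPM in B6 and 0.546 CPM in CD103Tg and was tested only without the filter. Il6, Il10 and Il27 are not analysed here.

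Of 13 other receptor chains related to gp130 or to the interleukin-10 receptor, 4 were tested, 2 rose and 0 fell. Both that rose belong to the interleukin-12 receptor, whose chains resemble gp130. Il12rb2 went from 2.77 ± 0.742 to 31.5 ± 4.9 CPM (log2 fold change 3.12, limma adjusted p = 4.51e-07) and Il12rb1 from 18.5 ± 2.16 to 45.2 ± 2.16 CPM (1.25, limma adjusted p = 2.63e-06). Il11ra1, the interleukin-11 alpha chain, was at 1.91 and 1.87 CPM.

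Of the 8 other Janus kinase and STAT genes, 3 rose and 1 fell, with a median of 0.09. Stat2, which transmits interferon signals, went from 52.5 ± 5.25 to 90.5 ± 17.4 CPM (SD, n = 4 each; limma adjusted p = 0.000991). Stat5b, used by interleukin-2 family receptors, fell by 0.28 (adjusted p = 0.00397). Jak3, the kinase of the common gamma chain, rose by 0.35 (adjusted p = 0.0238), but lost its call without B6 replicate 1 (0.0672) or 3 (0.0679), or CD103Tg replicate 2 (0.05) or 3 (0.0617). Stat6 was at -0.14 and passed as lower without CD103Tg replicate 2 (adjusted p = 0.0351). The number of these genes called lower was 2 without B6 replicate 4 or CD103Tg replicate 2.

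Of the adaptors that link gp130 to the Ras branch, 5 of 7 were tested, 1 rose and 0 fell. The one that rose was the exchange factor gene Sos2, from 55.8 ± 1.56 to 70.1 ± 3.22 CPM (SD, n = 4 each; limma adjusted p = 0.000973). Grb2, an adaptor, was at 160 and 166 CPM.

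Of 15 genes of inhibitors and receptor sheddases, 4 rose and 2 fell, with a median of 0.06. The suppressor genes Cish (log2 fold change 3.31), Socs2 (2.65) and Socs1 (1.08) rose, with limma adjusted p = 1.34e-07, 1.6e-05 and 1.95e-05. Socs2, at 0.753 CPM in B6, had a log2 fold change of 3.85 with a pseudocount of 0.1 and 1.33 with one of 5, and 4.07 with voom on estimated reads. It averaged 9.43 CPM in CD103Tg, and only that level took it past the filter. It is also in the count of genes called higher over the 7 lists. Socs3, the suppressor that binds gp130, was at 60.4, 104, 52.3 and 82.3 CPM in B6 and at 90.3, 90.3, 95.3 and 93.8 CPM in CD103Tg. B6 replicate 2 lay above every CD103Tg library and the other 3 B6 libraries below, and Socs3 did not pass (0.35, adjusted p = 0.136).

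Pias3, named for its inhibition of STAT3, rose by 0.38 (limma adjusted p = 0.019) and lost its call without B6 replicate 3 (0.0508), CD103Tg replicate 2 (0.0615) or CD103Tg replicate 3 (0.053). The genes that fell were Pias2 and Ptpn6, a phosphatase gene, with limma adjusted p = 0.0492 and 0.0318; leaving out any 1 library left 0 or 1 of these calls. The sheddase genes Adam10 and Adam17, whose products can release the interleukin-6 receptor from the membrane, did not pass (adjusted p = 0.741 and 0.104). Ptprc, encoding the phosphatase CD45, was at 3664 and 3637 CPM.

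Of 30 genes described as STAT3 targets, 23 were tested, 12 rose and 4 fell, with a median of 0.35, beside 17.4% and 13.8% of all genes tested. Fgl2 went from 11.3 ± 2.79 to 171 ± 51.7 CPM, Gadd45g, a growth arrest gene, from 9.06 ± 1.55 to 29.3 ± 1.83 CPM and Birc5, the survivin gene, from 5.79 ± 1.87 to 27.9 ± 6.5 CPM (SD, n = 4 each; limma adjusted p = 9.85e-07, 2.45e-06 and 3.78e-05). The costimulatory receptor gene Icos fell by 0.61 (adjusted p = 0.000121). Mcl1, a survival gene, was at 366 and 336 CPM and passed as lower only without CD103Tg replicate 4 (adjusted p = 0.0481) or without both replicates numbered 4. Most of these genes also answer to other factors, and the list does not measure STAT3 activity.

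Of 24 genes described as responsive to interleukin-27 in T cells, 16 were tested, 11 rose and 0 fell, with a median of 0.69, beside the same 17.4% and 13.8% of all genes tested. Ly6a, encoding Sca-1, went from 78.5 ± 13.4 to 604 ± 66.1 CPM, Ahr, the aryl hydrocarbon receptor gene, from 2.12 ± 0.528 to 10.8 ± 1.21 CPM and the ectoenzyme gene Entpd1 from 8.44 ± 1.68 to 62.8 ± 18 CPM (SD, n = 4 each; limma adjusted p = 9.38e-08, 3.29e-06 and 4e-06). With a pseudocount of 5 the log2 fold change of Ahr was 1.15 in place of 1.92. Il12rb2, given above, is also in this list, and several genes of the list answer to interferons as well. The list was chosen with earlier results of these data known, so its share of calls is a description. It does not measure interleukin-27 signalling. Ly6c2, part of the sort phenotype, did not pass (0.12, adjusted p = 0.355) and passed with quantile normalization (0.18, adjusted p = 0.0303).

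**Figure D5:**
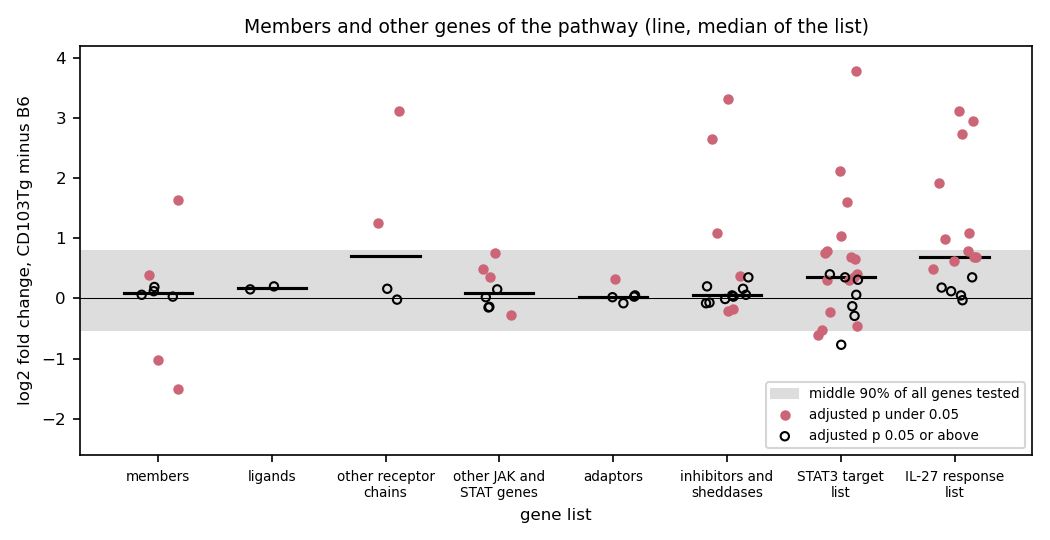
Log2 fold change of CD103Tg minus B6 (y axis) for each tested gene of the members and of the 7 lists, with the median of each list as a line and the middle 90% of all tested genes in grey (-0.52 to 0.78). The members lie on both sides of 0, with Il6st at -1.51 and Il10ra at 1.64. The median of the interleukin-27 response list is 0.69, and the lists were chosen with earlier results of these data known.

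The genes most like Il10ra and Il6st were sought by the root mean square difference of log2(CPM + 1) over the 8 libraries, each gene set to its own B6 mean, among 8962 other genes. Closest to Il10ra were Trim30c (0.102), Itpripl2 (0.113) and Cysltr2 (0.116). Trim30c went from 14.3 ± 0.76 to 44.4 ± 3.18 CPM (SD, n = 4 each). Closest to Il6st were Gpr146 (0.129), Slc16a5 (0.135) and Nme4 (0.143), and Slc16a5, a member of the monocarboxylate transporter family, went from 104 ± 7.98 to 34.8 ± 5.19 CPM. The measure follows the group difference first, and the genes are named as a description.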

How the data were processed

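RNA-seq libraries of 4 B6 and 4 CD103Tg samples were made with SMART-Seq v4 and Nextera XT kits per the labels' protocols; they do not mark strand and hold no molecular identifiers. Per the submitters' processing notes, the tools were bcl2fastq 2.17, cutadapt 1.18, STAR 2.7.0f and RSEM, and the genome was GRCm38 (mm10). No annotation is named in the sources used here; GENCODE M21 matched all 13245 gene IDs and versions, and positions and lengths were taken from it. The authors deposited a normalized signal for a filtered set of genes, as CPM scaled with TMM factors; the rule of their filter was not found in the labels. Each value was a multiple of 0.01 of a read, and 63.0% to 65.2% per library came out as whole reads (tolerance 0.005), so estimated reads could be recovered; they were used for depth and for 1 alternative test.

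The test was limma 3.58.1 in R 4.3.3 on log2(CPM + 1), two-sided, comparing the genotypes with eBayes and its trend option and no covariate, for genes averaging at least 1 CPM. P-values were adjusted by Benjamini-Hochberg over every gene tested. The pseudocount understates changes of low genes. The script was tested on simulated data. The members, lists and ratios were chosen with earlier results of these data known. By rule the text names the members, Itgae, up to 4 called genes of each pathway list by smallest adjusted p, the most abundant uncalled gene of each, and the 3 genes of at least 5 CPM nearest in profile to the members with the largest rise and fall. Osm, Lif, Socs3, Stat5a, Pias2, Ptpn6, Adam10, Adam17, Prdm1, Tbx21 and Xist were named after their values were seen. So were genes that overlap a member and single markers. A gene that the rule would name is not reported here. The alternatives changed the pseudocount (0.1 or 5), the low-value filter (none, or 5 CPM), the scaling (median of ratios, quantiles, equal totals) and the model (robust eBayes, array weights, voom on estimated reads, a replicate block), or left out 1 library at a time. A Y-linked covariate and leaving out both libraries numbered 4 were chosen after seeing the data. Tables used Python 3.11.15, numpy 2.4.6 and pandas 2.3.3, and figures matplotlib 3.10.9.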

Additional observations from a re-analysis of the deposited data

Results flagged for a closer look

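In 68 groups of 4 libraries (34 genes in B6 and in CD103Tg), 4 had a library whose gap to the others, as a share of the group's range, exceeded Dixon's 95% critical value; chance gives about 1 in 20. None of the 8 members was among them. In B6 replicate 4, Itgae stood at 174 CPM against 37.5 to 51.4 in the other B6 libraries, Stat5b at 162 against 181 to 182, and Socs2 at 1.93 against 0.273 to 0.518. In B6 replicate 3, Icos stood at 51.2 CPM against 45.9 to 46.6.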

How the results depend on the processing

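The calls of Il6ra, Il6st, Il10ra and Il10rb and their directions were kept under all 21 alternatives, with log2 fold changes of -1.16 to -0.95, -1.61 to -1.43, 1.57 to 1.72 and 0.35 to 0.49 and adjusted p of at most 0.000276, 6.86e-05, 1.18e-05 and 0.00836. The number of genes called ranged from 2786 (without CD103Tg replicate 2) to 3968 (array weights), against 3592. Il27ra, Jak1 and Jak2 were called under none. Same-numbered libraries deviated together for only some numbers (correlations of 0.22, 0.35, -0.08 and 0.12). B6 replicate 4 correlated more with CD103Tg replicate 3 (0.24) than with its own number, so the main test did not pair samples. On the second principal component (9.6% of the variance), replicates 1 to 4 were at 10, 7.2, 1.8 and -16.9 in B6. In CD103Tg they were at 7.1, 8.9, -4.5 and -13.7. Whether same-numbered libraries shared a batch was not tested. The replicate block gave 3682 calls and, among the members, a call for Stat3 (0.19, limma adjusted p = 0.0289). Over 34 single genes and 713 values, 687 kept direction and call, 8 lost a call, 6 gained one and 12 changed sign. The changes of sign were all in uncalled genes near 0: Il11ra1 was at 0.01 with array weights, at -0.09 to 0.06 with 1 library left out (above 0 without B6 replicate 2 or CD103Tg replicate 1 or 4) and at 0.03 without both replicates numbered 4. Ptprc was at 0.02 with quantile normalization, 0.01 with array weights, -0.04 to 0.01 with 1 library left out and 0.01 without both replicates numbered 4. Without both replicates numbered 4 Jak3 was at 0.34 (adjusted p = 0.0628). The cause of these changes was not tested. Depth did not limit the members, which had at least 2489 estimated reads in every library.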

Other observations

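Within CD103Tg, replicate 4 stood at 1 end for several genes of the pathway. It had the highest Itgae (5509 CPM), Il6st (162), Il6ra (69.2) and Jak2 (207), and the lowest Il10rb (263), Il27ra (382), Tbx21 (223 CPM against 247 to 285), which encodes the effector factor T-bet, and Prdm1 (5.69 CPM against 9.85 to 10.1), which encodes Blimp-1. Il10ra was at 194 CPM in CD103Tg replicates 1 and 4 alike. Without replicate 4 the differences of Il6st and Il10rb between the groups were -1.61 and 0.46 on the log2 scale. The position of this library was not particular to the pathway. On the first principal component of all genes tested (66.4% of the variance) it was at 20.5. The other CD103Tg libraries were at 24.1 to 29.9, and the B6 libraries at -26.3 to -24.6.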
